A study of Mus musculus with 2 samples.

Results

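The 7 genes described here belong to intestinal chloride secretion and were read in the mouse colon. They were taken by symbol as a list, Cftr, Slc12a2, Kcnq1, Kcne3, Kcnn4, Best2 and Clcn2, and all 7 were found among the 43346 Ensembl genes of the deposited tables. The tissue was the sigmoid colon of 1 adult female C57BL/6J mouse, 10 weeks old, with no genotype change or treatment in the labels. The labels give 2 technical libraries of polyadenylated RNA from this mouse (1 biological replicate), called library 1 and library 2 by their replicate numbers; library 2 was made in 2015. There was no second condition or animal, so each ± is an SD over n = 2 technical libraries and covers no difference between mice.

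Chloride secretion draws water into the gut lumen. A cotransporter in the basolateral membrane (Slc12a2, NKCC1) brings sodium, potassium and chloride into the cell, chloride leaves through Cftr in the apical membrane, and basolateral potassium channels let potassium back out, which keeps the cell voltage that drives chloride exit. Cyclic AMP opens Cftr and the potassium channel made of Kcnq1 and its subunit Kcne3, while calcium opens the potassium channel Kcnn4. Best2 is an anion channel of colonic goblet cells that passes bicarbonate, and Clcn2 is a chloride channel that opens on hyperpolarization.

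The 7 genes differ in base composition, a property the list did not use and along which the libraries differed. The share of G and C bases (GC content) of their transcripts was 41.2% for Cftr, 44.2% for Slc12a2 and 47.2% for Kcne3, and 56.8% for Kcnq1, 57.2% for Clcn2, 57.5% for Best2 and 60.4% for Kcnn4. No member lay between 48 and 56%. The contrast is shown by the middle 90 bases of the coding part of the exon that holds the most coding sequence in the main transcript of 6 genes (GENCODE M21, GRCm38; G and C in capitals), from the lowest to the highest GC content of the gene.
Cftr: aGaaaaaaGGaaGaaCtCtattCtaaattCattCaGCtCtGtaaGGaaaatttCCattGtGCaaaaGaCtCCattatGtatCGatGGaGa
Kcne3: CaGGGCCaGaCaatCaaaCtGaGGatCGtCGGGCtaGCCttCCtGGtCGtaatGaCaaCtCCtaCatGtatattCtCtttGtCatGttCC
Kcnq1: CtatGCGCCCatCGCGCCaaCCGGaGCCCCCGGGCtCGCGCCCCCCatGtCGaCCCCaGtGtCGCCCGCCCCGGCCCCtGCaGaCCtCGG
Clcn2: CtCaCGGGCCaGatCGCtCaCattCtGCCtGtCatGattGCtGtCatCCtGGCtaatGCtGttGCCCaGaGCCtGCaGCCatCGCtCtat
Best2: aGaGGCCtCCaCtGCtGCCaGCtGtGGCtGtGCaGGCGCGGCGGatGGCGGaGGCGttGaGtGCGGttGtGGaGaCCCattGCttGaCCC
Kcnn4: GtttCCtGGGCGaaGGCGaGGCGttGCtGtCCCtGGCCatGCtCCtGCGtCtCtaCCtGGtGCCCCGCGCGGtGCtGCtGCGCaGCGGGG
The Cftr stretch lies in exon 14 of 27 (chr6:18268029-18268118, plus strand) and holds 30 G or C in 90 bases. Kcne3 has its whole coding sequence of 309 bases in exon 4 of 4 (chr7:100184287-100184376, plus strand), and its stretch holds 43. In Kcnq1 the stretch is in exon 1 of 16 (chr7:143107505-143107594, plus strand) and holds 70, well above the 57.4% of its whole coding sequence. Clcn2 is shown from exon 15 of 24 (chr16:20709164-20709253, minus strand), with 50, Best2 from exon 10 of 10 (chr8:85007730-85007819, minus strand), with 60, and Kcnn4 from exon 3 of 9 (chr7:24377449-24377538, plus strand), with 64. Over whole coding sequences GC content ran from 41.98% in Cftr to 62.7% in Kcnn4, a narrower range than that of the stretches. The stretch was also above its coding sequence in Best2 (66.7 against 58.7%) and Kcnn4 (71.1%). It was below its coding sequence in Cftr (33.3%), Kcne3 (47.8 against 51.5%) and Clcn2 (55.6 against 57.6%).

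Library 1 held 25843064 expected counts (estimated reads per gene) and library 2 held 20681574. Mitochondrial genes took 24.1 and 5.59% of these counts, and nuclear protein-coding genes made up 31.3 and 75.3% of the TPM (a level corrected for transcript length and scaled to a fixed sum). Levels are therefore given in TPM over all genes and again rescaled over nuclear protein-coding genes. All 8 epithelial markers checked (such as Epcam, Cdh1 and Vil1) were detected in both libraries, with summed levels of 1203 and 7775 TPM. Over nuclear protein-coding genes the sums were 3840 and 10320 TPM. By the test described below, 4 of the markers were called higher in library 2 and 1 lower (37 and 28.2% of all genes). The sum was uneven: Krt8 was at 60.7 and 2931 TPM, and Cdh17 at 266.7 and 255.1 TPM. These are technical libraries of 1 mouse. In this bulk tissue, a difference in the making of the libraries, in cells of a type or in RNA per cell cannot be told apart.

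Of the chloride entry and exit pair, Slc12a2, the basolateral cotransporter (ENSMUSG00000024597.10, chromosome 18, 57878678 to 57946821, GRCm38), had 22069 counts in library 1 and 7629 in library 2, or 144.7 and 83.8 TPM (114 ± 43.1). It ranked 369 and 1500 by TPM among 21461 nuclear protein-coding genes. Cftr, the cyclic AMP-gated chloride channel (ENSMUSG00000041301.11, chromosome 6, 18170687 to 18322768), had 10683 and 3950 counts, or 73.3 and 45.2 TPM (59.2 ± 19.9). Both genes were lower in library 2 on each scale. The TPM of Cftr was 0.506 of that of Slc12a2 in library 1 and 0.539 in library 2, the closest agreement of the 5 pairs of members compared. Cftr and Slc12a2 are also the members of lowest GC content (41.2 and 44.2%), the property along which the libraries differed. Rescaled over nuclear protein-coding genes, Slc12a2 was at 462 and 111 TPM and Cftr at 234 and 59.97 TPM.

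Of the other anion channels, Clcn2 (ENSMUSG00000022843.12, chromosome 16, 20702964 to 20717746) had 116 counts in library 1 and 4906 in library 2, or 1.82 and 129.9 TPM (65.9 ± 90.6). Best2 (ENSMUSG00000052819.5, chromosome 8, 85007202 to 85014531) had 43 and 1172 counts, or 0.94 and 42.7 TPM (21.8 ± 29.5). These channels were near the bottom of the 7 in library 1, whereas in library 2 Clcn2 stood second after Kcne3 and Best2 was close to Cftr. The TPM of Clcn2 was 0.0248 of that of Cftr in library 1 and 2.88 times it in library 2, so the order of these channels was opposite in the libraries. Best2 was at 0.0128 of the Cftr level in library 1 and at 0.945 in library 2.

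Of the potassium channels, Kcne3, the small subunit that holds Kcnq1 open (ENSMUSG00000035165.9, chromosome 7, 100176502 to 100184869), had the highest TPM of the 7 in each library. It had 2948 and 2468 counts, or 169 and 181.6 TPM (175 ± 8.90), which was the smallest relative spread of the 7, but over nuclear protein-coding genes it was at 539.5 and 241 TPM. Kcnq1, the pore subunit (ENSMUSG00000009545.10, chromosome 7, 143106362 to 143427042), had 165 and 1361 counts, or 4.39 and 34.5 TPM (19.4 ± 21.3). Kcne3 thus exceeded its pore partner in each library, by 38.5 times in library 1 and 5.27 times in library 2 (20.1 and 4.50 times by the posterior mean TPM). The TPM of Kcnq1 in library 1 lay below its own deposited interval of 4.52 to 12.5, which surrounds the posterior mean. Several other members had a TPM above their interval, such as Kcne3 in library 2 (164 to 178.9) and Slc12a2 in library 1 (144.7 TPM, 137 to 141). Others, such as Kcnn4 in both libraries, lay inside it. Kcnn4, the calcium-activated channel (ENSMUSG00000054342.7, chromosome 7, 24370263 to 24386690), had 6 and 565 counts, or 0.14 and 21.2 TPM (10.7 ± 14.9). It had the lowest TPM of the 7 in each library, at 0.0319 of the Kcnq1 level in library 1 and 0.615 in library 2. All of the 3 potassium channel genes lie on chromosome 7, far apart from one another.

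**Figure D1:**
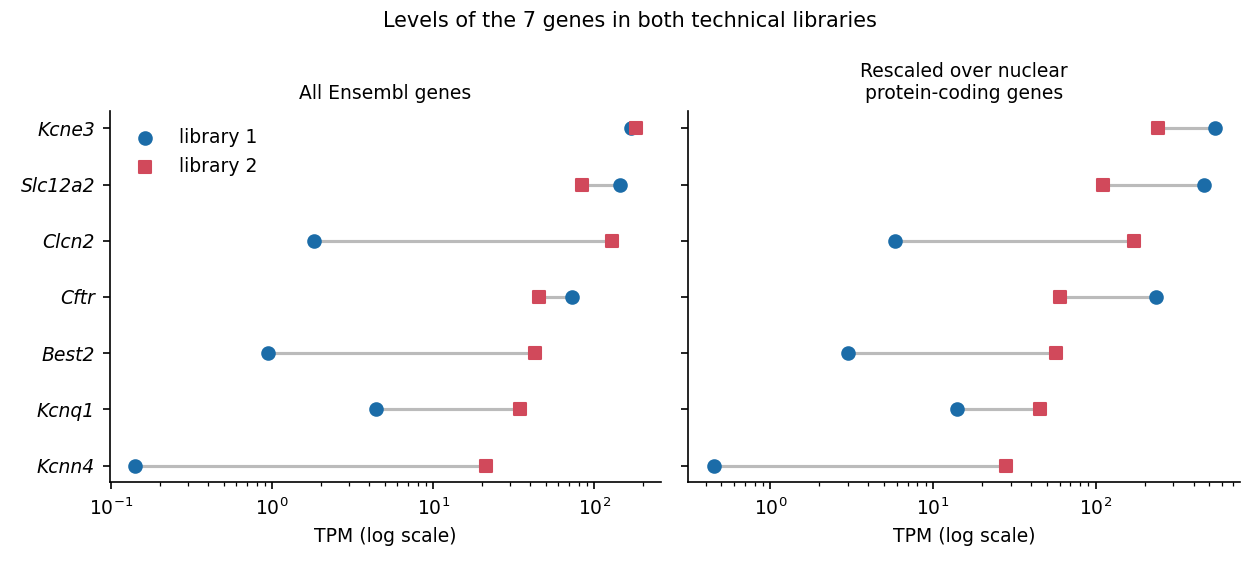
TPM on a log axis of the 7 genes in library 1 (circles) and library 2 (squares), over all Ensembl genes on the left and rescaled over nuclear protein-coding genes on the right; a line joins the libraries of a gene. Kcne3, Slc12a2 and Cftr sit close together or higher in library 1, while Clcn2, Best2, Kcnq1 and Kcnn4 sit far higher in library 2.

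The order of the levels depended on the library. In library 1 it ran Kcne3, Slc12a2, Cftr, Kcnq1, Clcn2, Best2, Kcnn4, and the highest was 1208 times the lowest. The authors' deposited intervals around the posterior mean TPM did not overlap between any neighbours of that order (for example 156 to 169 for Kcne3 and 137 to 141 for Slc12a2). In library 2 the order was Kcne3, Clcn2, Slc12a2, Cftr, Best2, Kcnq1, Kcnn4, and the highest was 8.57 times the lowest. There the intervals of Cftr (41.4 to 44.1), Best2 (37.99 to 42.6) and Kcnq1 (32.6 to 44.7) overlapped. The level of those intervals is not given in the sources used here, and they cover counting and read assignment only. They surround the posterior mean and do not always hold the TPM that sets these orders. By the posterior mean the order was the same in each library. Over both libraries the SD exceeded the mean for Clcn2, Best2, Kcnq1 and Kcnn4, so their means are not compared. Within each library Clcn2 was above Best2, Best2 was above Kcnn4, and Kcnq1 was above Kcnn4, whereas the place of Kcnq1 against Clcn2 and Best2 differed between the libraries.

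The libraries were then compared gene by gene, which asks how closely technical libraries of 1 tissue match for these genes. Counts were scaled by effective library size (TMM), and a gene was called at an adjusted p under 0.05 (exact binomial test, Benjamini-Hochberg over 15705 genes) and at least 2-fold. The test compares these 2 libraries, has no replicate check and covers counting error only. Of the 7 members 4 were called higher in library 2, 2 lower and 1 was not called. Over all tested genes 37% were called higher, 28.2% lower and 65.2% in either direction. With only 7 members, the 6 called are not read as differing from that share.

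Kcnn4 had the largest log2 ratio of library 2 over library 1, at 6.01 (exact 95% interval 4.997 to 7.58; exact binomial test, adjusted p = 1.26e-124). It passed the filter on low counts only through library 2, and its 6 counts in library 1 compare with the 3 that a count of 0 allows. Clcn2 was next at 4.97 (4.71 to 5.25) and then Best2 at 4.32 (3.90 to 4.81), a 20.02-fold difference. Kcnq1 was higher at 2.61 (2.38 to 2.86). The 4 genes called higher are the 4 with a GC content above 56%. Slc12a2 was lower at -1.96 (-1.999 to -1.92) and Cftr at -1.86 (-1.92 to -1.81), a 3.64-fold difference. Kcne3 had -0.69 (-0.76 to -0.61, exact binomial adjusted p = 1.04e-67) and missed the fold threshold at 1.61-fold. By the ratio of TPM values, which shifts the median of all genes by 1.12 on the log2 scale, Slc12a2 (-0.79) and Cftr (-0.70) lost their call and Kcne3 had 0.10. A call by that ratio rests on the fold threshold alone, without a test.

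The ratios followed GC content closely, in the members as in all genes. Of the genes below 42% GC, 96.8% were called lower in library 2 (n = 1724, median log2 ratio -2.03), and of those at 54% or above 91.2% were called higher (n = 4405, median 3.36). Spearman's rho between GC content and the ratio was 0.903 across 15648 genes, which are not independent replicates and share the same pair of libraries, and 0.929 across the 7 members. Cftr, at 41.2% GC, had almost exactly the ratio of genes of its GC content, whose smoothed trend was at -1.80. The trend stood at 3.57 for Clcn2, 3.72 for Best2 and 4.95 for Kcnn4, each below the gene's own ratio, and at 3.38 for Kcnq1, above its ratio.

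**Figure D2:**
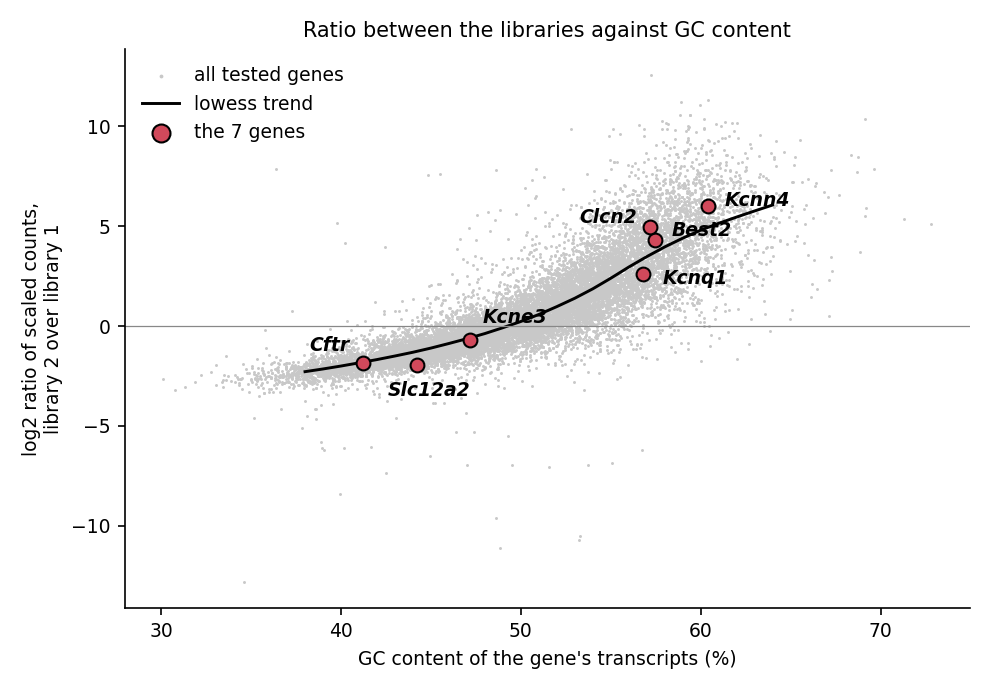
Log2 ratio of scaled counts (library 2 over library 1) against the GC content of each gene's transcripts in percent; grey points are the tested genes with a GC value, the line is the lowess trend and the red points are the 7 genes. The members lie along the trend, from Cftr at 41.2% GC and -1.86 to Kcnn4 at 60.4% GC and 6.01.

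With that trend taken off, 1 of the 7 members was still called, and none was called lower (12.5% of all genes higher, 11.2% lower, 23.7% either way). The member called was Clcn2, at 1.39 (2.63-fold; exact binomial adjusted p = 7.95e-33). Kcnn4 had 1.07 but missed the test (adjusted p = 0.059, exact binomial), and Best2 had 0.60. Cftr (-0.06) and Kcne3 (-0.09) were close to genes of like composition, and Slc12a2 (-0.69) and Kcnq1 (-0.77, against 2.61 before) stood below them by less than 2-fold. Length was a smaller companion of the ratio for most members: with the trend on length taken off in place of GC, the same 6 members were called in the same direction and Kcne3, the shortest transcript, was called lower at -2.15.

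The count of members higher was 4 with DESeq2 size factors (36.4% of all genes higher, 29.4% lower, 65.7% either), total counts (47.7, 11.7 and 59.4%), nuclear protein-coding totals (40.4, 22.5 and 62.9%) and no filter on low counts (29.3, 22.2 and 51.5%). It was also 4 at a mean count of at least 50 (36.6, 29.1 and 65.7%), with a prior count of 2 (36.8, 28.1 and 64.9%) and with the length trend taken off (31.4, 34.8 and 66.2%). At a threshold of 4-fold (26.4, 7.41 and 33.8%) and by the ratio of TPM values (54.3, 5.22 and 59.5%) it was 4 too, but no member was lower, as Slc12a2 and Cftr then missed the threshold. Calls by the ratio of TPM values used the 2-fold threshold alone, without a test.

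The markers of cells that carry these genes are given beside the ratios, with 37% of all genes called higher and 28.2% lower. The 8 goblet cell markers, among them Muc2 and Zg16, were all detected and summed to 4704 and 30468 TPM, which is 15012 and 40439 TPM on the nuclear protein-coding scale, and 6 were called higher, with 0 lower. The 7 T cell markers, a cell type that also makes Kcnn4, summed to 4.87 and 17.5 TPM (15.5 and 23.2 TPM on that scale), with 0 of 6 tested called either way. The 5 red blood cell markers, another such cell type, summed to 70.9 and 2803 TPM (226 and 3720 TPM on the nuclear scale), with 5 called higher and Hba-a1 at 0 in library 1. The 6 markers of the crypt base, where Slc12a2 and Cftr are strongest, summed to 36.2 and 84.5 TPM, but on the nuclear protein-coding scale they were at 116 and 112 TPM, with 3 called higher and 2 lower. These calls were made without the GC trend taken off, and of all genes at 54% GC or above 91.2% were called higher. Marker calls with that trend off were not made, so the sums and calls do not measure cell numbers. The part of these cell types in the ratios of the 7 genes was not tested.

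Transcript shares gave a further view of 4 members, since Slc12a2, Best2 and Kcnn4 have 1 transcript each in the deposited tables. Cftr was almost all Cftr-201, the full-length coding transcript, at 97.6% of the gene's TPM in library 1 and 95.8% in library 2 (96.7 ± 1.24%). Its 2 transcripts annotated for nonsense-mediated decay, a pathway that degrades RNA with an early stop, together had 0.62 and 2.98%. For Cftr, then, the libraries gave nearly the same makeup despite the difference in counts.

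Clcn2 was led by its coding transcript Clcn2-201, at 81.8 and 61.1% (71.4 ± 14.7%). Transcripts annotated as retaining an intron made up 38.4% of Clcn2 in library 2, from 1506 of its 4906 counts, with Clcn2-209 at 15.4% and Clcn2-207 at 11.5%, both listed at 0 in library 1. In library 1 they made up 15.5%, but from 5.9 counts, mostly Clcn2-205 at 13.8% (1.49% in library 2). At this depth the shares of Clcn2 in library 1 are too uncertain to set against those of library 2: by the posterior mean the retained-intron share was 29.2% in library 1 and 39.2% in library 2. By the counts of Clcn2-201 alone the log2 ratio was 4.56, and that of Cftr-201 was -1.90.

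The leading transcript of Kcnq1 differed between the libraries, on only 165 counts of the gene in library 1. Kcnq1-201, with 16 exons and 3029 bases, took 22.2% of the gene in library 1 and 96.3% in library 2. Kcnq1-202, with 12 exons and 1535 bases, lacks exons 12 to 15 of Kcnq1-201 and ends in a shorter last exon (216 against 1133 bases), and it took 68.4% in library 1 (97.4 counts) and 0 in library 2. By the posterior mean the shares were 11.9 and 82.1% for Kcnq1-201 and 35.8 and 0.49% for Kcnq1-202, so their size in library 1 depended on the estimate. By that estimate Kcnq1-205 and Kcnq1-204, both listed at 0 counts, took 20.9 and 15.4% in library 1, above Kcnq1-201. Kcnq1-207, of 282 bases, took 9.45 and 3.71% from 1 and 2 counts. The full-length transcript alone therefore went from 66.6 to 1359 counts, a log2 ratio of 3.91 in place of 2.61 for the gene. Kcnq1 also overlaps Kcnq1ot1, the long antisense RNA that silences neighbouring imprinted genes, over 93092 bases. Kcnq1ot1 had 310 and 88 counts (0.15 and 0.07 TPM), the opposite direction to Kcnq1. Whether the counting used strand is not stated, and without strand the reads of a gene and of its antisense partner cannot be told apart. Clcn2 shares 85 bases with Fam131a (1 and 65 counts) and 82 with Polr2h (143 and 310 counts) on the other strand, and the antisense Gm15592 inside Cftr was listed at 0 in both libraries. Kcne3 lies within the antisense gene Gm34821, which was not analysed here.

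The transcripts of Kcne3 also changed places while the gene's TPM stayed close. Kcne3-204, the shortest at 816 bases in the tables, had 75.4% in library 1 and 12.9% in library 2. Kcne3-201 rose from 10.1 to 46.9% and Kcne3-202 from 14.5 to 39.3%. In GENCODE M21 all of the 4 encode the same 309 coding bases, and they differ outside them. The length of Kcne3-204 there is 1059 bases, so its structure in the annotation used by the authors differs and its place is uncertain. The M21 sequences of these transcripts lay between 46.9 and 47.3% GC. The versions used by the authors have other lengths, and their GC content was not measured. The effective length of Kcne3 moved with the shares, from 724 to 946 bases, and TPM divides by that length.

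Kcne3 has an upstream and a downstream start in RefSeq (GRCm38.p6), 2013 bases apart, and the shares bear on which is used. The 250 bases before each start are shown with each CG in capitals, since CG-rich windows mark many promoters.
Kcne3 upstream: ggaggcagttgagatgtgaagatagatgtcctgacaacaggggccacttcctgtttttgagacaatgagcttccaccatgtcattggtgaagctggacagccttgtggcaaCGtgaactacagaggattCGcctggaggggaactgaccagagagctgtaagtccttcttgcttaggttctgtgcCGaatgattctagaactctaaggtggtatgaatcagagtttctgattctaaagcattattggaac
Kcne3 downstream: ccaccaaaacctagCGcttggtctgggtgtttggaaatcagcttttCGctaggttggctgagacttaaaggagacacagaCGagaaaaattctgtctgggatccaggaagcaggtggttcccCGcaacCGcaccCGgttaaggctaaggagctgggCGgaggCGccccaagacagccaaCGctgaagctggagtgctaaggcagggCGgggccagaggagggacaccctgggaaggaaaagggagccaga
The upstream window (chr7:100176420-100176669, plus strand) holds 3 CG and the downstream window (chr7:100178433-100178682, plus strand) holds 10. CG reads the same on both strands, and 92.1% of 32851 promoter windows of this length hold at least 1, with a median of 6. The transcript that starts at the upstream site in GENCODE M21, Kcne3-203, had 0.06% of the gene in library 1 and 0.82% in library 2. The 3 that start at the downstream site there had 99.9 and 99.2% together. They include Kcne3-204, with 75.4 and 12.9%, whose structure in the annotation used by the authors differs. The likeness of this part of the makeup in the libraries therefore rests on the M21 start of Kcne3-204.

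**Figure D3:**
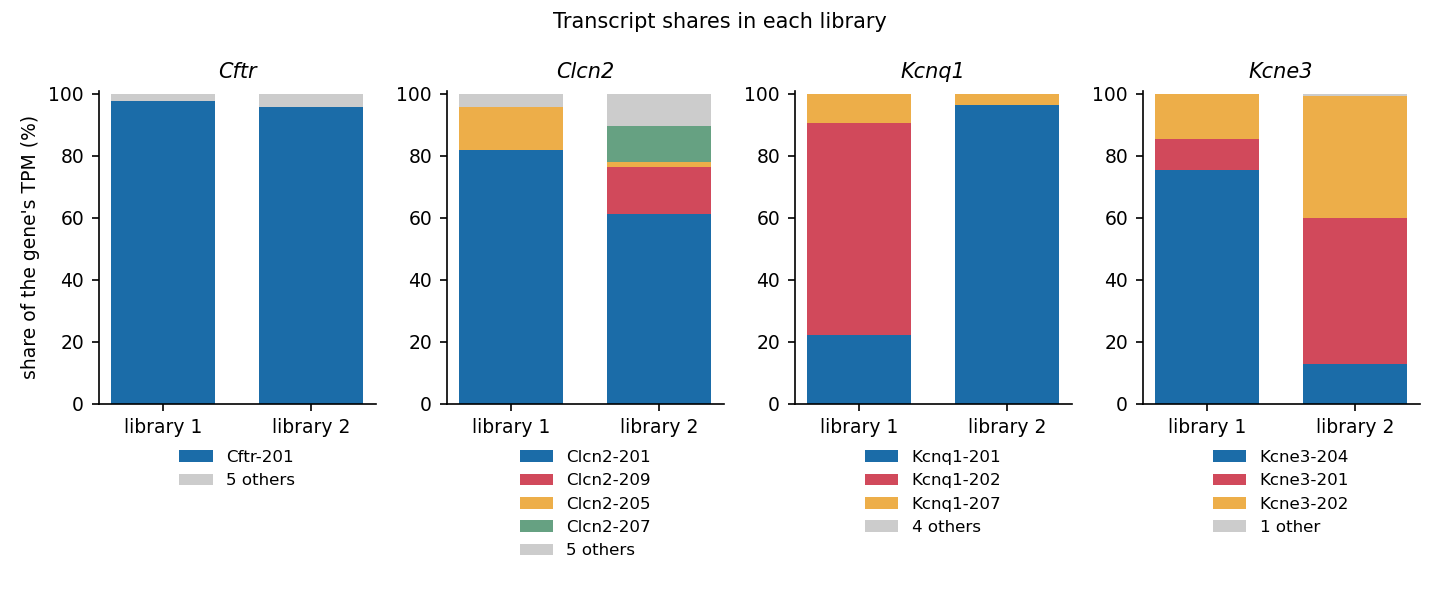
Share of each transcript in its gene's TPM, in percent, as stacked bars for library 1 and library 2; transcripts with a mean share of at least 5% have their own colour and the rest are grey. Cftr keeps 1 transcript above 95% in both, whereas Kcnq1-201 goes from 22.2 to 96.3% and Kcne3-204 from 75.4 to 12.9%.

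The genes that act with these 7 were read from 8 lists by role, 113 genes in all, of which 97 could be tested. Of these, 41 were called higher in library 2 (42.3%, against 37% of all genes), 25 lower (25.8%, against 28.2%) and 31 were not called, with a median log2 ratio of 0.51 beside 0.12 for all genes. With the GC trend taken off, 7 of the 97 were higher and 13 lower, beside 12.5 and 11.2% of all genes. The ratio of TPM values moved the median of all genes to 1.24, and those of the lists with it. The counts of each list below stand against the same 37% higher and 28.2% lower of all genes.

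In the cyclic nucleotide arm, which opens Cftr through protein kinases, 7 of 21 tested genes were higher, 5 lower and 9 not called (median -0.13). Guca2a, which encodes guanylin, a peptide that raises cyclic GMP, was at 11.4 and 2471 TPM and was higher (log2 ratio 6.62), as it was with the GC trend off (4.10). Gnas, the stimulatory G protein subunit that turns on adenylyl cyclase, was at 171.6 and 518 TPM with a ratio of 0.51 that was not called, and with the GC trend off it was called lower (-1.84). The regulatory subunits of protein kinase A were Prkar1a at 71.5 and 82.7 TPM (-0.94) and Prkar2a at 80.1 and 59.9 TPM (-0.74), neither called.

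In the calcium arm, which opens Kcnn4, 8 of 16 were higher, 4 lower and 4 not called (median 1.303, or -0.16 with the GC trend off). Calm2 and Calm3 encode calmodulin, the calcium sensor bound to Kcnn4. Calm2 was lower (705 and 592 TPM, log2 ratio -1.44) and Calm3 was higher (16.9 and 248 TPM, 3.87). Their GC contents were 42.8 and 57.98%, and with the GC trend off the ratios were 0.09 and -0.08. Gna11, a G protein subunit that turns on phospholipase C, was at 2.79 and 127.9 TPM and was higher (4.56). Casr, the calcium-sensing receptor, was below 0.1 TPM in both libraries.

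Among scaffold and trafficking partners of Cftr, 6 of 13 were higher, 5 lower and 2 not called (median 0.66). Rab11a, a GTPase of recycling endosomes, was at 213.6 and 246 TPM and was lower by scaled counts (-1.69), as was the motor Myo6 at 67.2 and 100.3 TPM (-1.19), while both had a higher TPM in library 2. Slc9a3r1, the PDZ scaffold NHERF1 that binds the tail of Cftr, was at 9.64 and 165 TPM and was higher (2.93), but with the GC trend off it was called lower (-1.28). Its actin linker Ezr, ezrin, was at 89.99 and 315 TPM without a call (0.60, or -0.76 with the GC trend off). The anion transporter gene Slc26a9 was listed at 0 in both.

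Of the kinases and related genes that control Slc12a2, 4 of 10 were higher, 5 lower and 1 not called (median -0.86). Wnk1, the kinase at the head of this pathway, was at 133.9 and 81.8 TPM and was lower (-1.25), and so were the scaffold Cab39 at 143.7 and 113 TPM (-1.52) and its relative Cab39l at 24.3 and 21.4 TPM (-1.35). They were lower, as Slc12a2 was, and have GC contents of 44.6, 45.1 and 43.4%, close to its own. Ppp1r1b, a protein phosphatase 1 inhibitor, was at 11.7 and 309 TPM and was higher (4.12, or 0.08 with the GC trend off).

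The relatives of the members help to place them. Of the other cation chloride cotransporters, 5 of 6 tested were higher, 0 lower and 1 not called (median 2.69), beside 37 and 28.2% of all genes. With the GC trend off 0 were higher and 0 lower (median 0.15). Slc12a8 was at 3.38 and 45.1 TPM, Slc12a7, a potassium chloride cotransporter that lets chloride out, at 2.70 and 44.2 TPM and Slc12a9 at 0.64 and 9.19 TPM. Each was below Slc12a2 in both libraries, and the kidney cotransporters Slc12a1 and Slc12a3 were below 0.1 TPM in both. Of the other Kcnq and Kcne genes the most abundant was Kcne4, at 1.84 and 4.43 TPM, and Kcne2 was at 0.66 and 0.86 TPM. Kcne1, the subunit that pairs with Kcnq1 in the heart, and Kcne1l were below 0.1 TPM in both. Kcne3 and Kcnq1 were thus the most abundant genes of their families in each library. In that list 1 of 6 was higher, 2 lower and 3 not called.

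Among other calcium-activated potassium channels, 2 of 6 were higher, 0 lower and 4 not called. Kcnma1, the large-conductance channel of muscle and epithelium, was at 3.48 and 8.57 TPM, its subunit Kcnmb1 at 4.35 and 5.99 TPM, and Kcnn3, a small-conductance relative of Kcnn4, at 2.69 and 4.56 TPM. Lrrc26, a subunit that lets the large-conductance channel open at rest, was at 0.33 and 44.8 TPM and was higher (5.83, or 0.94 and not called with the GC trend off). With 8 counts in library 1 and 651 in library 2, it passed the filter on low counts only through library 2. In library 1 Kcnn4 lay below each of these 4, and in library 2 only Lrrc26 of the 4 was above it. Of other chloride channels and related genes, 8 of 19 were higher, 4 lower and 7 not called (median 0.78). Ano1, the calcium-activated chloride channel, which also marks interstitial cells of Cajal, was at 22.2 and 158 TPM and just passed (1.01, or -0.24 and not called with the GC trend off), Clic1 was at 15.6 and 218 TPM (3.27), Clic5 at 73.6 and 77.7 TPM (-1.09, lower by scaled counts only) and Clic4 at 49.5 and 74.9 TPM (-0.57). Best3 was below 0.1 TPM in both libraries.

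**Figure D4:**
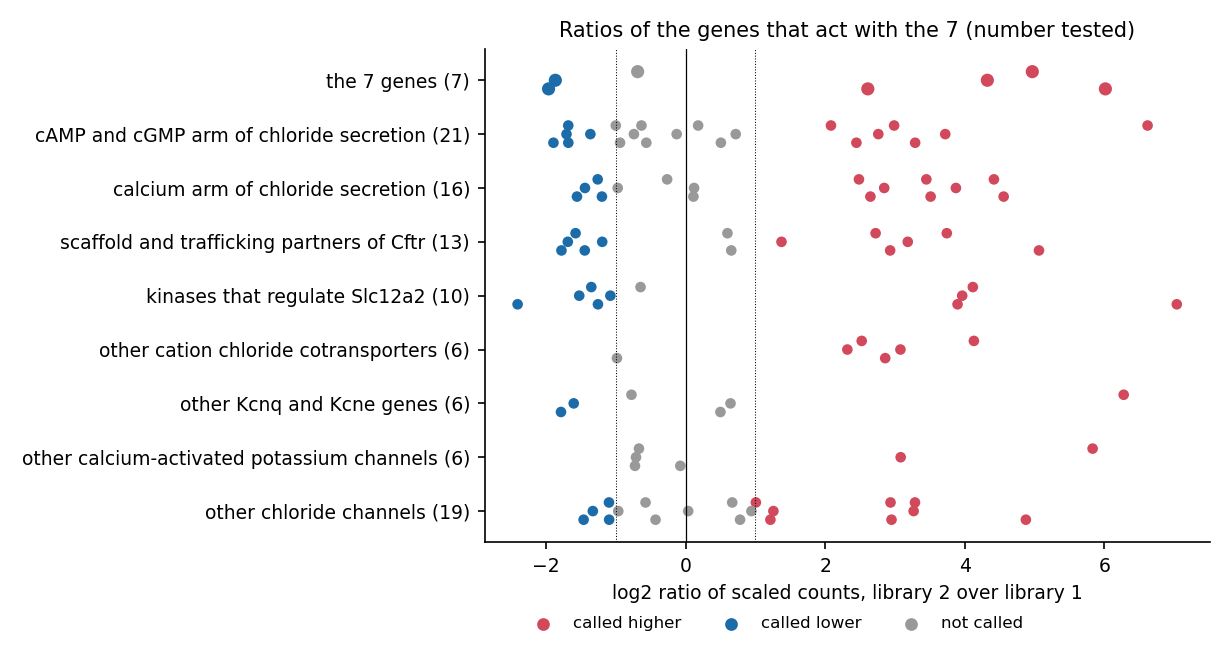
Log2 ratio of scaled counts (library 2 over library 1) of the 7 genes and of the tested genes of 8 lists, 1 point a gene, coloured by call; dotted lines mark 2-fold, and points are set apart vertically only for legibility. Each list holds points over a wide range, and the members reach from -1.96 to 6.01.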

How the data were processed

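RNA-seq of 2 technical libraries of 1 mouse was used. Per the file headers, the deposited gene and transcript tables hold the authors' expected counts (estimated counts in which reads that match several transcripts are shared out), TPM, posterior mean TPM with a pair of interval bounds (a signal in TPM), effective lengths, and transcript shares within a gene in percent. Assembly mm10 and annotation GENCODE M4 come from the text files deposited beside them. Aligner, quantifier and use of strand: not given in the sources used here.

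Of 69691 entries the 43346 Ensembl genes were used, and 42462 had a symbol. Positions, gene types and sequences came from GENCODE M21 (GRCm38, the same assembly), and promoters from RefSeq; GC content is the mean over M21 transcripts weighted by TPM. RefSeq promoters were matched for Cftr, Clcn2, Kcne3 and Kcnn4. Expected counts were rounded. Genes with a mean of at least 10 were tested by a two-sided exact binomial test given TMM effective library sizes (edgeR 4.0.16, R 4.3.3; library 2 over library 1 was 1.35), because 1 library a side leaves edgeR's quasi-likelihood test no residual degrees of freedom. Ratios used a prior count of 0.5. Trends were lowess fits (fraction 0.2, statsmodels 0.14.6). The test was checked on counts simulated under its own counting model, with few genes changed and no GC trend. That check covers the computation and not how well the model describes these libraries. Members, lists and tests were chosen with earlier results of these data known. Named were all members, the 4 most abundant genes of each list, genes below 0.1 TPM in both libraries, genes overlapping a member, and transcripts with a mean share of at least 5%; some genes under this rule are not reported here; other transcripts are named only to complete a makeup, after their values were seen. Alternatives covered scaling (DESeq2 1.42.0 size factors, totals), filters, prior count, TPM ratios, posterior means, trends and fold.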

Additional observations from a re-analysis of the deposited data

How the results depend on the processing

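The calls of the members depended most on GC content: with its trend taken off, 1 member was higher and 0 lower in place of 4 and 2. Of the 97 tested pathway genes, 7 were then higher and 13 lower in place of 41 and 25. Over all genes the shares were 12.5 and 11.2% in place of 37 and 28.2%. With the GC trend off Kcnq1 turned from 2.61 to -0.77. The lower calls also depended on scale. At 4-fold (7.41% of all genes lower) and by the ratio of TPM values (5.22%), 0 members and 1 pathway gene were lower. By total counts (11.7%) 4 pathway genes were lower. Kcne3, which was not called, turned to 0.065 by total counts and 0.10 by the ratio of TPM values. The cause of these changes was not tested. The other settings left 4 members higher and 2 lower, or 3 lower with the length trend taken off, where Kcne3 was called. Counts of the main coding transcript alone were an alternative chosen after seeing the data. With 1 library a side no library can be left out of a ratio; for levels and shares, leaving out a library gives the value of the other, printed above. Depth limits Kcnn4, Best2 and Clcn2 in library 1, at 6, 43 and 116 counts, and the transcript shares of Kcnq1, at 165. No paired analysis was possible because there is 1 group.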
